A study of Homo sapiens with 19 samples.

Results

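TRE5SPNN elements are a small class of test sequences in a reporter library that was assayed for promoter and enhancer activity at the same time in K-562, an established human leukaemia cell line. They were taken by name: every element whose name was TRE5SPNN, a 4-digit number and .fwd or .rev. There were 79 such elements among 3196 in the 6 tables of the library's set 2, and 3422 elements in the whole series. They came from 47 numbered elements. By their names, 41 carried the sequence forward and 38 in reverse, and 32 numbers had both orientations in at least 1 table. The labels do not say what the letters SPNN stand for, and the sequences and genome positions of the elements were not used here.

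The assay, QUASARR-seq, placed each element in the plasmid pDEST-QUASARR-luc-gfp and read 2 barcodes for it. The barcode named paBC reported promoter activity of the element and the barcode named eaBC reported its enhancer activity on a minimal promoter. The set 2 plasmids carried 1 of 3 minimal promoters, pMYC, pGAPDH or pAPOBEC3F, and were pooled in the same libraries. Each electroporation used 20 µg of plasmid, 5 electroporations made a technical replicate, and a biological replicate pooled 2 of those. The cells were taken at 6 h, and their pool was divided between RNA and DNA extraction. There was no untreated group: all libraries came from the same cells and plasmid pool, and the DNA libraries served as the reference for the RNA libraries. Each read-out had 2 RNA and 2 DNA libraries, numbered 1 and 2. The labels do not say whether the numbers stand for biological or technical replicates, so the p-values measure only the spread between these libraries, which may be technical.

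A promoter is DNA from which transcription starts, and it commonly has a direction. An enhancer raises transcription from a promoter elsewhere on the same molecule and is classically described as acting in either orientation. A minimal promoter holds little more than the site where the transcription machinery assembles, so its output depends on what is placed beside it, and different minimal promoters can respond differently to the same element.

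Values are the log2 ratio of RNA over DNA, the mean of the 2 libraries of equal number unless said otherwise, computed from the authors' normalised values with 0.5 added. Each table was normalised on its own, so 0 is set by the whole table and an element called higher or lower was so relative to that point. Ratios with the 3 minimal promoters and in the 2 read-outs can therefore be set side by side but not tested against each other. An element was called higher or lower where limma's adjusted p (Benjamini-Hochberg over the table) was under 0.05. The median over all tested elements was 0.24 for the pMYC promoter read-out, 0.19 for its enhancer read-out and 0.23 for the pAPOBEC3F promoter read-out, and within 0.08 of 0 for the other tables.

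Each library held 200722 to 10167588 reads per table. TRE5SPNN elements were thinly covered in each of them. In the pMYC promoter table their median depth over both DNA libraries was 672.5 reads, against 2041 for all tested elements. The pAPOBEC3F enhancer table was the thinnest, with a median of 130 DNA reads and 25 RNA reads for TRE5SPNN elements against 409 and 102 for all. There 20 of 47 TRE5SPNN elements had under 20 RNA reads in both libraries together. The part of this lower depth in the results below was not tested.

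Not every element was recovered with every minimal promoter. TRE5SPNN elements numbered 38 with pMYC, 59 with pGAPDH and 47 with pAPOBEC3F, and the promoter and enhancer tables of a minimal promoter listed the same ones. Of all 3196 elements, the promoter tables listed 2569, 3055 and 2703 in the same order. The class was thus listed less often than elements in general, and each minimal promoter had a different subset of it. Of the 79, 32 were listed with 1 minimal promoter, 29 with 2 and 18 with all 3. One element, TRE5SPNN0046.rev, was listed in the pGAPDH promoter table but not tested by the authors there. It had 95 DNA reads in that table.

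As promoters, TRE5SPNN elements were found at the low end of every table more often than all elements were. Their share in the highest 10.0% was near that of all elements, but a smaller share was called higher. With pMYC, 15 of 38 were called higher and 17 lower, against 51.5% and 27.7% of all 2561 tested elements. Their median log2 ratio was -0.21, with quartiles of -0.77 and 1.48, against a median of 0.24 and quartiles of -0.28 and 1.19 for all. A log2 ratio between -0.5 and 0.5 was found for 9 of 38 (23.7%), against 44.7% of all elements. A ratio of at least 1 was found for 12 (31.6%), near the 27.9% of all elements, and one of at most -0.5 for 15 (39.5%, against 15.6%). In the highest 10.0% of the table there were 5 of the 38 (13.2%).

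TRE5SPNN0074.fwd had the highest promoter ratio of the class with pMYC. Its normalised values were 270.0 and 267.4 in the DNA libraries and 4355 and 4298 in the RNA libraries. Every RNA value lay far above every DNA value, and the log2 ratio was 4.01 (SE 0.04, adjusted p = 2.1e-19), at a percentile rank of 98.5 in the table. TRE5SPNN0073.fwd followed, with DNA values of 188.9 and 207.9, RNA values of 2073 and 2145 and a log2 ratio of 3.41 (SE 0.05, adjusted p = 4.1e-17). TRE5SPNN0053.fwd had DNA values of 52.61 and 57.19, RNA values of 457.1 and 428.3 and a log2 ratio of 3.0 (SE 0.08, adjusted p = 4.1e-14). In all 3 the RNA and DNA libraries did not overlap. The highest and lowest elements named here and below were picked by these same values, so such separation describes them and adds no support.

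At the other end of the pMYC table, TRE5SPNN0010.fwd had DNA values of 86.38 and 83.75 and RNA values of 24.06 and 26.3. Its log2 ratio was -1.74 (SE 0.15, adjusted p = 3.2e-08), at a percentile rank of 0.6. TRE5SPNN0072.fwd, the most deeply covered of the low elements named here with 13968 DNA reads, had DNA values of 1232 and 1246 and RNA values of 515.6 and 572.3. Both RNA values were under every DNA value, and the ratio was -1.19 (SE 0.05, adjusted p = 8.1e-12). TRE5SPNN0085.rev, named after its values were seen, had the lowest ratio, -1.96, on 38 RNA reads.

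With pAPOBEC3F, of 47 TRE5SPNN elements, 18 were called higher and 23 lower, against 50.3% and 30.4% of all 2699 tested elements. The median was -0.24 against 0.23, and the quartiles were -0.85 and 2.48 against -0.37 and 1.69. A ratio of at least 1 was found for 17 elements (36.2%, against 34.0% of all), one of at most -0.5 for 20 (42.6%, against 19.8%) and one between -0.5 and 0.5 for 10 (21.3%, against 36.6%). The share in the highest 10.0% of the table was 10.6%. Compared with all elements, more of the class lay at the low side and fewer near 0. A smaller share was called higher (38.3% against 50.3%), though the upper quartile was higher. The count called lower was 14 without the first DNA library and 13 without the second.

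Among well-covered elements, here those whose 2 DNA values sum to at least 100, TRE5SPNN0053.rev had DNA values of 105.3 and 108.3 with pAPOBEC3F and RNA values of 2224 and 2167. That is a log2 ratio of 4.35 (SE 0.05, adjusted p = 4.3e-12), with the RNA libraries well clear of the DNA libraries. The other orientation, TRE5SPNN0053.fwd, had DNA values of 131.0 and 138.3, RNA values of 1206 and 1147 and a ratio of 3.12 (SE 0.06, adjusted p = 7.1e-11). TRE5SPNN0075.fwd reached 2.73 (SE 0.06, adjusted p = 2.2e-10), from DNA values of 113.5 and 109.3 and RNA values of 742.2 and 742.1. Among well-covered elements the lowest were TRE5SPNN0090.fwd at -1.73 (SE 0.25, adjusted p = 0.00021) and TRE5SPNN0092.rev at -1.54 (SE 0.18, adjusted p = 4e-05). Both were called on few RNA reads, 35 and 50.

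With pGAPDH most TRE5SPNN elements were low. Of 58 tested, 42 were called lower and 10 higher, against 47.0% and 36.6% of all 3044 elements. The median ratio was -0.60 against -0.07, and 21 of the 58 (36.2%) fell in the lowest 10.0% of the table. The class also had 5 members (8.62%) in the highest 10.0%. A ratio of at most -0.5 was found for 32 (55.2%, against 22.3% of all).

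TRE5SPNN0053.rev had the highest ratio among the well-covered elements with pGAPDH, 1.29 (SE 0.05, adjusted p = 4.2e-15). Its DNA values were 93.06 and 88.32 and its RNA values 220.1 and 225.8. TRE5SPNN0002.rev had DNA values of 61.63 and 63.11, RNA values of 115.0 and 129.0 and a ratio of 0.96 (SE 0.07, adjusted p = 5.4e-11). In both elements the RNA values lay above the DNA values without overlap. TRE5SPNN0014.rev, named after its values were seen, ranked higher still at 2.34 (SE 0.12, adjusted p = 8.7e-14), from DNA values of 12.47 and 11.15, which are 136 reads, and RNA values of 61.34 and 61.72. The lowest was TRE5SPNN0045.fwd, with DNA values of 291.0 and 297.7, RNA values of 99.79 and 102.0 and a ratio of -1.54 (SE 0.05, adjusted p = 3.5e-17). TRE5SPNN0010.fwd was almost as low, at -1.53 (SE 0.07, adjusted p = 5.4e-14).

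As enhancers, few TRE5SPNN elements were high. With pMYC, 8 of 38 were called higher and 5 lower, against 39.1% and 7.58% of all tested elements. The median was -0.06 against 0.19. The count called lower was 2 without either of the DNA libraries and 8 without the second RNA library. When the table was centred on its median element, 8 were higher and 10 lower.

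The same 2 elements led both read-outs with pMYC. TRE5SPNN0074.fwd had enhancer DNA values of 317.2 and 317.4 and RNA values of 1699 and 1547. Its log2 ratio was 2.35 (SE 0.08, adjusted p = 6.6e-16). TRE5SPNN0073.fwd had DNA values of 199.7 and 224.7, RNA values of 873.0 and 900.1 and a ratio of 2.06 (SE 0.10, adjusted p = 2.1e-13). RNA and DNA libraries were apart in both. For TRE5SPNN0006.fwd the enhancer ratio was 1.18 (SE 0.13, adjusted p = 2e-07), from DNA values of 133.5 and 141.1 and RNA values of 293.0 and 331.8. Its promoter ratio with pMYC was 0.04 (SE 0.09, adjusted p = 0.65), and its promoter RNA values of 151.9 and 149.7 lay among the DNA values of 139.7 and 153.3.

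With pGAPDH, 2 of 59 TRE5SPNN elements were called higher as enhancers and 20 lower, against 23.7% and 19.0% of all 3043 tested elements. The 2 were TRE5SPNN0053.fwd at 0.45 (SE 0.07, adjusted p = 1.7e-07) and TRE5SPNN0068.rev at 0.72 (SE 0.19, adjusted p = 0.0016). The median ratio was -0.25, and 24 of the 59 (40.7%) lay in the lowest 10.0% of the table. The ratios were small: the lowest, that of TRE5SPNN0084.fwd, was -0.80 (SE 0.17, adjusted p = 4.3e-05), from DNA values of 59.1 and 58.07 and RNA values of 32.56 and 34.56. Without the second RNA library 11 were called lower, and without the first 1 was called higher.

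With pAPOBEC3F, 4 of 47 were called higher as enhancers and 8 lower, against 28.3% and 8.01% of all 2695 tested elements. The median was -0.33 against 0.08. TRE5SPNN0075.fwd was highest, with DNA values of 137.9 and 151.0, RNA values of 440.3 and 463.5 and a ratio of 1.64 (SE 0.15, adjusted p = 1.3e-06). TRE5SPNN0053.rev followed at 1.54 (SE 0.13, adjusted p = 6.7e-07), from DNA values of 187.2 and 196.7 and RNA values of 571.8 and 546.9. In both the RNA values were above the DNA values in every library. These counts were the least firm of the 6 tables: 2 were called higher and 1 lower without either DNA library, 9 were higher without the second RNA library, and 18 and 16 were lower without the first and the second RNA library.

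TRE5SPNN elements listed in all 6 tables numbered 18, and the share of all elements called alike in 6 tables was not counted. Of the 18, only TRE5SPNN0068.rev was called higher in all 6 tables. Its promoter ratios were 2.91 (SE 0.06) with pMYC, 1.01 (SE 0.09) with pGAPDH and 3.84 (SE 0.12) with pAPOBEC3F. Its enhancer ratios were 1.16 (SE 0.13), 0.72 (SE 0.19) and 1.33 (SE 0.35) in the same order. The pMYC promoter values were 116.1 and 111.0 in DNA against 827.6 and 889.8 in RNA, and the groups did not overlap. The enhancer calls were less secure: the pGAPDH adjusted p became 0.09 without the second DNA library and 0.08 without the first RNA library, and the pAPOBEC3F adjusted p became 0.097 and 0.19 without the first and the second DNA library.

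Of the same 18, only TRE5SPNN0072.fwd was called lower in all 6. Its promoter ratios were -1.19 with pMYC, -0.96 (SE 0.09) with pGAPDH and -0.72 (SE 0.07) with pAPOBEC3F. Its enhancer ratios were -0.27 (SE 0.06), -0.54 (SE 0.12) and -0.75 (SE 0.13). The pMYC enhancer values were 1599 and 1617 in DNA against 1312 and 1362 in RNA. Here the 2 kinds of library lay close together but did not overlap, and without the mean-variance trend of the fit this call was lost (adjusted p = 0.066).

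As promoters, most TRE5SPNN pairs differed between orientations. Since forward and reverse elements of 1 number are in the same table, the difference between them was tested with the same limma design on log2 forward minus log2 reverse. With pAPOBEC3F, 10 of 13 pairs differed, against 54.0% of all 1192 pairs, 5 with the forward and 5 with the reverse orientation higher. Of the 644 called over all pairs, 393 were higher in the forward orientation. The median size of the difference was 2.63 on the log2 scale, against 0.41 over all pairs. Differences of over 2 were found in 9 of the 13 pairs (69.2%), against 2.85% of all pairs. In 7 of the 13 (53.8%) 1 orientation was called higher and the other lower, which was the case in 4.11% of all pairs. That count fell to 3 without the first DNA library and to 2 without the second.

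TRE5SPNN0043, TRE5SPNN0075 and TRE5SPNN0053 were the well-covered pairs among them. TRE5SPNN0043.fwd had pAPOBEC3F promoter DNA values of 112.8 and 103.1 and RNA values of 484.3 and 449.5, a ratio of 2.11, and its reverse had a ratio of -0.96. The difference was 3.07 (SE 0.32, adjusted p = 0.0022). TRE5SPNN0075.fwd stood at 2.73 and TRE5SPNN0075.rev at 0.13, from DNA values of 117.3 and 107.0 and RNA values of 123.4 and 122.0. The reverse orientation was thus near the table's 0, and the difference was 2.60 (SE 0.09, adjusted p = 0.00022). In TRE5SPNN0053 both orientations were high and the reverse was the higher: the difference was -1.23 (SE 0.07, adjusted p = 0.0006).

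The widest gaps were in pairs with less DNA, named after their values were seen. TRE5SPNN0054.fwd had pAPOBEC3F promoter DNA values of 18.04 and 18.28 and RNA values of 5.056 and 10.09, which are 16 RNA reads in all. TRE5SPNN0054.rev had DNA values of 23.77 and 22.51 and RNA values of 588.5 and 569.6, on 1203 RNA reads. The RNA of the forward element lay under its DNA and that of the reverse element far above its DNA, with ratios of -1.28 and 4.62 and a difference of -5.90 (SE 0.35, adjusted p = 0.0006). TRE5SPNN0045 had -1.62 forward and 2.98 reverse (difference -4.60, SE 0.41, adjusted p = 0.0014). TRE5SPNN0006 had -0.79 and 2.89 (difference -3.68, SE 0.09, adjusted p = 0.00022). The reverse was the high orientation in these 3.

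In other pairs the forward orientation was the high one. TRE5SPNN0034 had 2.92 forward and -0.91 reverse (difference 3.82, SE 0.18, adjusted p = 0.00041). TRE5SPNN0025 had 2.70 and -0.64 (difference 3.34, SE 0.14, adjusted p = 0.00032). In both, the replicate differences lay close together, at 3.88 and 3.77 for TRE5SPNN0034 and at 3.28 and 3.41 for TRE5SPNN0025. The lower call of the weak orientation was lost without the first and the second DNA library in TRE5SPNN0006.fwd (adjusted p = 0.15 and 0.18), TRE5SPNN0025.rev (0.11 and 0.23) and TRE5SPNN0054.fwd (0.10 and 0.11), and without the second in TRE5SPNN0034.rev (0.067).

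With pMYC all 8 pairs differed as promoters, against 58.9% of all 1086 pairs, 6 of them with the forward orientation higher. The forward orientation was also the higher in 408 of the 640 called over all pairs. The median size was 1.53 against 0.39, and 7 of the 8 (87.5%) were called with a difference of at least 1, against 11.9% of all pairs. In 3 of the 8 (37.5%) 1 orientation was called higher and the other lower, against 6.63% of all pairs. TRE5SPNN0068 had 1.37 forward and 2.91 reverse, a difference of -1.54 (SE 0.06, adjusted p = 0.00024). TRE5SPNN0001 had 0.70 forward, from DNA values of 363.1 and 400.3 and RNA values of 563.7 and 681.9, and -0.33 reverse, from DNA values of 232.0 and 223.1 and RNA values of 170.5 and 191.6. The forward RNA lay above its DNA and the reverse RNA under its DNA in both libraries, and the difference was 1.03 (SE 0.10, adjusted p = 0.0017).

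With pGAPDH the orientation gaps were smaller. As promoters 12 of 17 pairs differed, against 69.2% of all 1429 pairs, so the count was close to that of the table as a whole. Opposite calls of the 2 orientations were found in 2 of the 17 (11.8%), under the 16.6% of all pairs. The median size was 0.55 against 0.32, and 2 pairs (11.8%) were called with a difference of at least 1, against 6.65% of all. One was TRE5SPNN0045, at -1.54 forward and -0.32 reverse (difference -1.22, SE 0.06, adjusted p = 0.00016). The other was TRE5SPNN0058, named after its values were seen, at -1.02 and 0.64 (difference -1.67, SE 0.15, adjusted p = 0.00052).

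In the enhancer read-out the called differences between orientations were few. With pMYC 1 of 8 pairs differed (against 3.78% of all pairs), with pGAPDH 0 of 18 (against 2.52%) and with pAPOBEC3F 2 of 13 (against 2.78%). At an unadjusted limma p under 0.05 the counts were 2 of 8, 5 of 18 and 6 of 13, against 22.7%, 27.6% and 19.4% of all pairs. With the replicate number as a block, 0, 5 and 0 pairs were called at the adjusted threshold. The median sizes were 0.42, 0.17 and 0.73, against 0.24, 0.14 and 0.27 over all pairs. Without the first DNA library no pMYC pair was called, without the second RNA library 3 were, and without the second DNA library 1 pGAPDH pair was. For pAPOBEC3F the count was 0 without either DNA library, 8 without the first RNA library and 11 without the second.

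The pairs called as enhancers were TRE5SPNN0075 and TRE5SPNN0053. With pAPOBEC3F, TRE5SPNN0075 had an enhancer ratio of 1.64 forward and 0.07 reverse, a difference of 1.58 (SE 0.16, adjusted p = 0.035). With pMYC it had 1.51 and 0.49, a difference of 1.03 (SE 0.16, adjusted p = 0.033). In both tables the forward orientation was the higher, as it was in the promoter read-out. TRE5SPNN0053 with pAPOBEC3F had 0.34 forward and 1.54 reverse, a difference of -1.20 (SE 0.12, adjusted p = 0.035), against -1.23 as a promoter. All 3 calls were lost with the replicate number as a block (adjusted p = 0.13 for the pMYC pair and 0.15 for both pAPOBEC3F pairs).

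Set side by side, the enhancer difference was the smaller in each of the pairs whose promoter difference was called and at least 1. This held for 7 pairs with pMYC, 2 with pGAPDH and 10 with pAPOBEC3F. The enhancer differences of those 10 pairs had sizes from 0.06 to 1.58. The pairs were picked by a large promoter difference, which by itself favours a smaller enhancer difference. The share of all pairs picked alike was not counted. Over all pairs the median size was 0.39, 0.32 and 0.41 as promoters and 0.24, 0.14 and 0.27 as enhancers (pMYC, pGAPDH, pAPOBEC3F). The sign could turn: TRE5SPNN0043 with pAPOBEC3F was 3.07 as a promoter and -0.60 as an enhancer (SE 0.19, adjusted p = 0.21). Whether the 2 read-outs' differences differ was not tested. The enhancer libraries had fewer reads.

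Elements of this class called higher as promoters were often not called higher as enhancers. Of the TRE5SPNN elements called higher as promoters, 7 of 15 (46.7%) were also called higher as enhancers with pMYC, 2 of 10 (20.0%) with pGAPDH and 4 of 18 (22.2%) with pAPOBEC3F. Over all elements the shares were 70.9%, 53.3% and 54.0%. With a promoter ratio of at least 1 the counts were 7 of 12 (58.3%), 1 of 3 (33.3%) and 4 of 17 (23.5%). The shares of all such elements were 88.9%, 83.6% and 69.1%. Among those with a promoter ratio of at least 1, the median enhancer ratio was 0.97 with pMYC (12 elements), 0.27 with pGAPDH (3 elements) and -0.02 with pAPOBEC3F (17 elements), against 1.05, 0.50 and 0.79 for all such elements. The enhancer ratio was under 0 in 4 of the 12 (33.3%) and 9 of the 17 (52.9%), against 1.82% and 8.74%. Only 2 of the 12 and 0 of the 17 were called lower as enhancers. The pAPOBEC3F enhancer table was thin, with a median of 25 RNA reads for the class against 102 for all. Read the other way, 7 of 8, 2 of 2 and 4 of 4 elements called higher as enhancers were also called higher as promoters with pMYC, pGAPDH and pAPOBEC3F, where the shares over all elements were 93.4%, 82.1% and 95.5%.

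Several TRE5SPNN elements were called higher as promoters and lower as enhancers. These were 2 of the 15 with pMYC (13.3%, against 0.455% of all elements called higher as promoters), 4 of the 10 with pGAPDH (40.0%, against 3.24%) and 1 of the 18 with pAPOBEC3F (5.56%, against 0.961%). TRE5SPNN0002.rev did so with 2 minimal promoters. With pMYC its promoter values were 235.3 and 265.4 in DNA and 1763 and 1701 in RNA, a ratio of 2.79 (SE 0.06, adjusted p = 8.8e-16). Its enhancer values were 333.2 and 322.4 in DNA and 246.1 and 252.9 in RNA, a ratio of -0.39 (SE 0.11, adjusted p = 0.0059). The RNA thus lay above the DNA in the promoter read-out and under it in the enhancer read-out, in every library.

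With pGAPDH, TRE5SPNN0002.rev stood at 0.96 as a promoter and -0.47 as an enhancer (SE 0.14, adjusted p = 0.0033). With pAPOBEC3F its promoter ratio was 4.28 (SE 0.13, adjusted p = 2e-09) and its enhancer ratio -0.35 (SE 0.37, adjusted p = 0.51), the latter on 13 RNA reads. The pMYC enhancer call was lost without either DNA library (adjusted p = 0.11 and 0.065), and the pGAPDH one without the first RNA library (adjusted p = 0.11).

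TRE5SPNN0043.fwd with pMYC stood at 1.44 as a promoter (SE 0.11, adjusted p = 6.4e-09) and -0.88 as an enhancer (SE 0.26, adjusted p = 0.0094). Its enhancer values were 94.35 and 71.54 in DNA and 38.08 and 51.67 in RNA. The libraries did not overlap, yet the replicate ratios were far apart at -1.30 and -0.47, and the call was lost without the first DNA library (adjusted p = 0.3). TRE5SPNN0048.fwd, listed with pGAPDH, stood at 0.92 (SE 0.05, adjusted p = 5.5e-13) and -0.67 (SE 0.14, adjusted p = 6.3e-05). Its promoter values were 108.2 and 109.1 in DNA and 203.6 and 208.3 in RNA, and its enhancer values 90.25 and 70.98 in DNA and 50.25 and 50.24 in RNA. The order of RNA and DNA was turned round between the read-outs in both libraries.

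The others with opposite calls were TRE5SPNN0034.fwd and TRE5SPNN0058.rev with pGAPDH and TRE5SPNN0046.fwd with pAPOBEC3F. TRE5SPNN0034.fwd had 0.26 as a promoter and -0.41 as an enhancer. TRE5SPNN0058.rev had 0.64 and -0.44, and TRE5SPNN0046.fwd had 0.50 and -0.89. The last of these enhancer calls was lost without either DNA library (adjusted p = 0.14 and 0.093). That of TRE5SPNN0058.rev was lost without the second DNA library (adjusted p = 0.27) and without the second RNA library (adjusted p = 0.11).

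Across TRE5SPNN elements, Pearson's r between the promoter and the enhancer ratio was 0.666 with pMYC (n = 38 elements), 0.344 with pGAPDH (n = 58) and 0.468 with pAPOBEC3F (n = 47). Spearman's rho was 0.516, 0.253 and 0.394. Over all elements r was 0.833, 0.615 and 0.751. The points share their libraries and forward and reverse elements share a sequence, so r is given as a description. Between the 2 numbered library pairs, r of the members' own enhancer ratio was 0.831, 0.329 and 0.459, while r of their promoter ratio was 0.978, 0.959 and 0.980. Over all elements these were 0.857, 0.805 and 0.774 for the enhancer ratio and 0.982, 0.979 and 0.985 for the promoter ratio. The 2 library pairs thus ordered the elements less alike as enhancers than as promoters. From libraries 1 alone r was 0.594, 0.354 and 0.335, and from libraries 2 alone 0.680, 0.198 and 0.481.

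TRE5SPNN0001.fwd, TRE5SPNN0053.fwd, TRE5SPNN0030.fwd and TRE5SPNN0046.fwd, all listed with the 3 minimal promoters, were named by the rule on ranks, which takes the largest difference in each direction among well-covered elements, so that some of the differences are small. The tables come from the same pooled libraries, and the differences between them were not tested. TRE5SPNN0001.fwd had promoter ratios of 0.70 (SE 0.08) with pMYC, -0.39 (SE 0.06) with pGAPDH and -1.0 (SE 0.12) with pAPOBEC3F, at percentile ranks of 65.6, 28.5 and 5.3. With pGAPDH its DNA values were 139.2 and 128.3 and its RNA values 106.8 and 96.68. With pAPOBEC3F they were 128.6 and 134.7 in DNA and 59.66 and 72.47 in RNA. RNA lay above DNA with pMYC and under it with the other minimal promoters. Its enhancer ratios, 0.20, 0.12 and 0.21, were not called with any.

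Other elements differed widely in rank between 2 tables. TRE5SPNN0084.fwd stood at 2.7 as a promoter with pGAPDH and 48.9 with pAPOBEC3F, TRE5SPNN0017.fwd at 30.9 and 72.0, and TRE5SPNN0045.rev, which the rule does not name here, at 33.3 and 89.2. By contrast, TRE5SPNN0053.fwd ranked high as a promoter with each minimal promoter, at 94.7, 86.9 and 90.6. On the ratio scale it stood at 3.0, 0.58 and 3.12. Its enhancer ratio was 1.01 (SE 0.19, adjusted p = 0.00013) with pMYC and 0.45 with pGAPDH, and 0.34 (SE 0.14, adjusted p = 0.067) with pAPOBEC3F, which was not called. TRE5SPNN0030.fwd was low as a promoter with pMYC (-0.75, SE 0.08) and pGAPDH (-0.82, SE 0.11), and with pAPOBEC3F its ratio was -0.09 (SE 0.18, adjusted p = 0.68). Without the first RNA library the last ratio was -0.31 and was called lower as well (adjusted p = 0.015). TRE5SPNN0046.fwd had -0.10, -0.77 and 0.50 in the same order.

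The classes with the most similar names can be set beside TRE5SPNN by their counts. The other elements whose names begin with TRE5SP numbered 97, and TRE5NGCC numbered 273. Low promoter values were shared by these classes. With pGAPDH, 72.4% of TRE5SPNN, 68.8% of the other TRE5SP elements and 73.8% of TRE5NGCC were called lower. Their median ratios were -0.60, -0.59 and -0.45. With pMYC 17 of 38, 22 of 44 and 124 of 210 were called lower, and with pAPOBEC3F 48.9%, 59.0% and 60.8%. The shares called higher as promoters were 39.5%, 34.1% and 13.3% with pMYC, 17.2%, 16.2% and 9.89% with pGAPDH and 38.3%, 20.5% and 8.37% with pAPOBEC3F. As enhancers they were 21.1%, 29.3% and 8.13% with pMYC, 3.39%, 7.59% and 4.96% with pGAPDH and 8.51%, 7.69% and 5.26% with pAPOBEC3F. The lowest 10.0% of the pMYC enhancer table held 28.9%, 29.3% and 19.1% of the classes. With pGAPDH these shares were 40.7%, 35.4% and 14.9%, and with pAPOBEC3F 31.9%, 41.0% and 18.4%. The difference between the classes was not tested, since the elements are not replicates of a condition.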

How the data were processed

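The deposited signal columns held 1 value per element for DNA libraries 1 and 2 and RNA libraries 1 and 2, with no unit in the headers. All values (100.0%, tolerance 0.02 reads) were whole multiples of 1 step per column, taken as 1 read. The geometric mean of a table's 4 column totals was 1000000 in each of the 6 tables, as when effective library sizes are set within a table. The submitters' processing notes name fastp, edgeR, limma and build hg38, per the labels. The aligner and the barcode matching are not given in the sources used here. The deposited tables also hold the authors' limma results, per the file headers: log2 fold changes, p-values plain and adjusted, and score columns. Of these, the adjusted p-values served to set calls side by side, and the authors' deposited table gave the same call for all but at most 1 of these elements per table.

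RNA was compared with DNA by limma 3.58.1 (R 4.3.3, eBayes with trend) on log2(value + 0.5), per table, over all elements the authors tested, two-sided, with Benjamini-Hochberg adjustment at 0.05. The orientation test used the same fit on forward minus reverse. edgeR 4.0.16 on recovered reads was an alternative. The RNA against DNA fit was tested on simulated data with far fewer changed elements than are called here. The orientation fit was not simulated. There 2.79% (pAPOBEC3F promoter table) to 9.66% (pMYC enhancer table) of the calls were false. The false share was above the threshold of 0.05 in every table but the pAPOBEC3F promoter one. Of true log2 changes of 0.5, 37.9% (pAPOBEC3F enhancer table) to 97% (pGAPDH promoter table) were recovered. Reads are PCR reads with no molecular identifiers named in the labels, so depth speaks only of counting error. Elements were named from those with a summed DNA value of at least 100: the 3 highest and 2 lowest called per table, the largest rank differences between tables and the largest called orientation differences. The elements, lists and tests were chosen with earlier results of these data known. Tables of set 1 hold none of these elements.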

Additional observations from a re-analysis of the deposited data

Results flagged for a closer look

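TRE5SPNN0001.fwd and 5 other elements of the class were called in opposite directions as promoters with different minimal promoters, with both replicate ratios on the same side in each table. The difference was not tested, because the tables were normalised separately. Of the class, 29 elements were listed with 2 minimal promoters and 18 with all 3. The share of all elements with such opposite calls was not counted, so the count is no result about this class. TRE5SPNN0001.fwd had a log2 ratio of 0.70 ± 0.09 (SD, n = 2) with pMYC, -0.39 ± 0.02 with pGAPDH and -1.0 ± 0.15 with pAPOBEC3F. TRE5SPNN0012.fwd had 0.63 ± 0.26 with pMYC and -0.56 ± 0.17 with pGAPDH. TRE5SPNN0045.rev had 1.79 ± 0.09 with pMYC, -0.32 ± 0.01 with pGAPDH and 2.98 ± 0.01 with pAPOBEC3F. The remaining elements were lower with pGAPDH and higher with pAPOBEC3F. TRE5SPNN0017.fwd had -0.36 ± 0.24 and 1.44 ± 0.15, TRE5SPNN0024.rev had -0.28 ± 0.07 and 2.34 ± 0.34, and TRE5SPNN0046.fwd had -0.77 ± 0.08 and 0.50 ± 0.19. The lower call of TRE5SPNN0024.rev was lost without the first DNA library (adjusted p = 0.25) and without the second RNA library (adjusted p = 0.073). No enhancer call turned in this way.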

How the results depend on the processing

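No called ratio or difference of a named element or pair turned its sign under an alternative, but 5 uncalled values were called on the other side of 0. TRE5SPNN0006.fwd as a promoter with pMYC was -0.2 when centred. With pAPOBEC3F as enhancers, TRE5SPNN0025.fwd was 0.51 without the first RNA library and -0.61 without the second, TRE5SPNN0034.fwd was -0.71 and 0.89, TRE5SPNN0050.rev was -0.83 and 0.66, and the TRE5SPNN0050 difference was 0.71 and -1.2. In 72 further cases a value uncalled in both settings turned its sign. Of the values of named elements under all alternatives, 2633 kept their side of the threshold, 67 passed it newly and 85 no longer passed it. With a log2 size of at least 1 required, the lower calls were 5, 14 and 7 as promoters and 0, 0 and 2 as enhancers (pMYC, pGAPDH, pAPOBEC3F), the pGAPDH higher calls 3 as promoters and 0 as enhancers, and the pGAPDH promoter pairs called 2. At an adjusted p under 0.01 the pAPOBEC3F enhancer calls were 2 higher and 4 lower. Without the trend, 3 pMYC elements were lower and 1 pGAPDH element higher as enhancers. Centred on the median element, 10 pMYC elements were lower as enhancers.

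Leaving out 1 library at a time gave, for pMYC, 14 to 16 higher, 12 to 20 lower and 6 to 8 pairs as promoters, and 8 to 12, 2 to 8 and 0 to 3 as enhancers. For pGAPDH the ranges were 9 to 10, 40 to 42 and 11 to 12 as promoters and 1 to 3, 11 to 22 and 0 to 1 as enhancers. For pAPOBEC3F they were 18 to 19, 13 to 24 and 10 to 12, and 2 to 9, 1 to 18 and 0 to 11. Without an RNA or a DNA library, the spread comes only from the kind with 2 libraries. The pairs with opposite promoter calls were 1 to 4, 1 to 2 and 2 to 7. From 1 numbered pair of libraries, r between read-outs was 0.594 to 0.68, 0.198 to 0.354 and 0.335 to 0.481, and with a summed DNA value of at least 100 it was 0.648 for pMYC (n = 24), 0.238 for pGAPDH (n = 31) and 0.633 for pAPOBEC3F (n = 28). The cell pool was divided between RNA and DNA extraction, but the labels link the libraries only by replicate number, and the main fit did not pair them. RNA and DNA deviations of equal number correlated at -0.075 to 0.027. With the replicate number as a block, 14 pMYC elements were higher and 17 lower as promoters, and the enhancer pairs called were 0, 5 and 0. The pAPOBEC3F enhancer table had the fewest reads, with a median of 25 RNA reads per TRE5SPNN element.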
